A study of Rattus norvegicus with 8 samples.

Results

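Genes of the proteasome and its activators were examined in the liver of male rats of the outbred Sprague-Dawley strain after 4 weeks on hydrogen water or on sterilized distilled water. Hydrogen water is drinking water with molecular hydrogen dissolved in it, here to 0.7 mM. At an age of 8 weeks, with all rats on the same commercial diet, 4 arrays of hydrogen water and 4 arrays of control liver RNA were compared. The study kept 8 rats per group, and the sources used here do not tie arrays to rats or state pooling, so that the p-values rest on a spread among arrays that may be technical. RNA of whole liver cannot tell fewer cells of a type from less RNA per cell. The members were the genes whose probe set, a group of short probes on the array, carried a single gene symbol beginning with Psma to Psmg and a digit, with the brightest probe set taken for each gene. The rule found 46 of 14217 named genes. Of these, 44 encode proteasome subunits, activators, an inhibitor or assembly chaperones. The other two, Psmc3ip and Psme3ip1, are named for proteins that bind a subunit or an activator, and are given apart. All 46 passed the filter on low signal. A further 6 probe sets shared a Psm symbol with another gene and were left out of the members. Psmb6 and Psme3 had no probe set with a single symbol and were not analysed here.

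The proteasome is the large protease that degrades proteins tagged with ubiquitin. Its core is a barrel of outer alpha rings (Psma genes) and inner beta rings (Psmb genes), which carry the cutting sites, and a regulatory cap of ATPases (Psmc) and non-ATPase subunits (Psmd) recognizes, unfolds and feeds in the substrate. In response to interferon, cells replace the 3 catalytic beta subunits by Psmb8, Psmb9 and Psmb10, which form the immunoproteasome, and cap the barrel with the Psme1 and Psme2 activator. The transcription factor encoded by Nfe2l1 raises proteasome genes together when proteasome activity falls short.

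Proteasome genes differed little between livers of rats on hydrogen water and control livers. In the fit over all tested probe sets (limma, with Benjamini-Hochberg adjustment over 15521 probe sets), 0 of the 46 genes passed an adjusted p of 0.05, in either direction, where 0.825% of all tested probe sets passed. The smallest adjusted p of any member was 0.195, for Psmd5. Unadjusted p-values under 0.05 were found for 3 of the 46, Psmc2, Psmd5 and Psmg1, which is 6.52% against 12.5% of all tested probe sets. The arrays of the 2 groups did not overlap at 1 of the 46, Psmd5, or 2.17%, against 7.48% of all tested probe sets. Differences are given as hydrogen water minus control on the scale of log2 signal after a pseudocount of 2.05, and the number of arrays limits their precision.

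The 44 proteasome genes lay close to 0 and were measured with narrow errors. Their differences ran from −0.30 at Psmd5 to 0.28 at Psmd9, with a median of 0.02, beside a median of −0.0011 over all tested probe sets. The median size of the difference, whatever its sign, was 0.064 for these genes, 0.132 over all tested probe sets and 0.104 over those in the range of mean signal that these genes span. The 95% interval from limma lay within a 1.5-fold change in either direction for 42 of the 44 genes, or 95.5%, the exceptions being Psmd3 and Psmd9. The same held for 61.7% of all tested probe sets and for 81% of those in the same range of signal. The median SD within groups was 0.113 for the 44 genes, 0.217 over all tested probe sets and 0.166 over those in the same range of signal. Probe sets in that range were not matched to these genes in brightness, nor limited to the brightest of each gene. The part of brightness and of this choice in the narrower errors was not tested. The sign of the median depended on the scaling of the arrays: it was −0.31 without normalization, where the median of all tested probe sets was −0.33, and −0.02 under median centring, where that of all was −0.05. Set against the median of all tested probe sets, the median of the 44 genes stood 0.01 to 0.03 above it under quantile normalization, no normalization, median centring and cyclic loess.

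**Figure D1:**
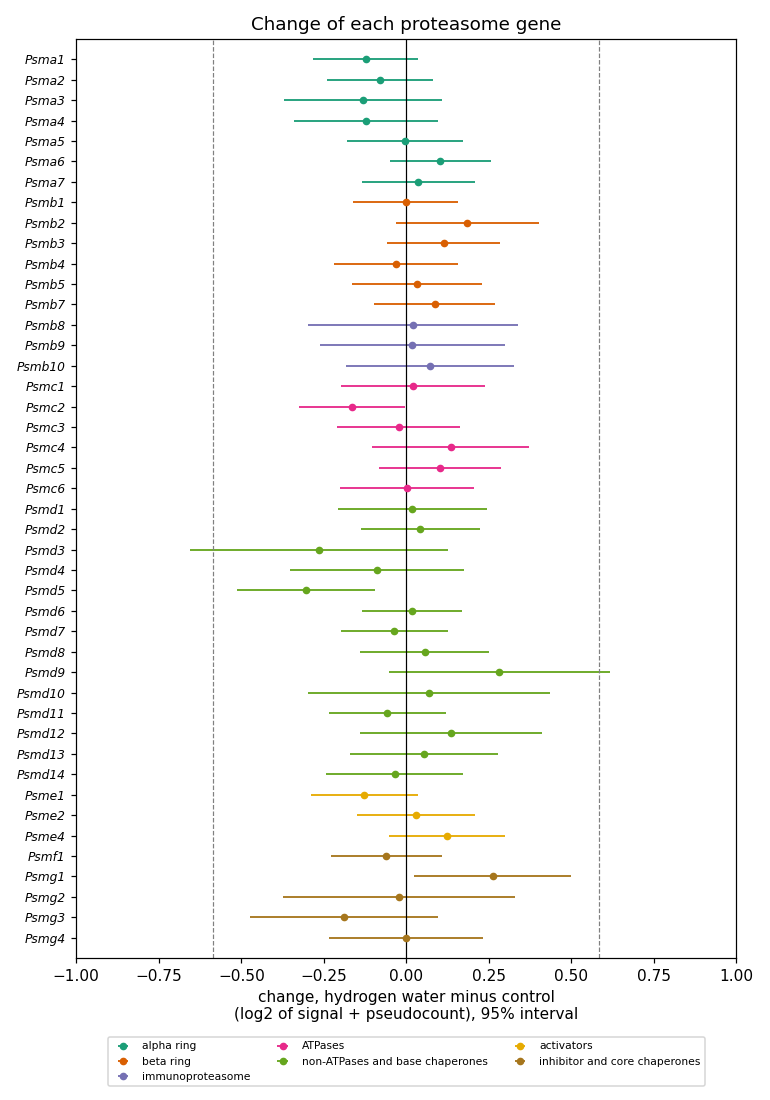
The difference of each of 44 proteasome genes between 4 hydrogen water and 4 control arrays (horizontal axis, hydrogen water minus control in log2 of signal plus pseudocount), with points for the limma estimate and bars for its 95% interval, coloured by the gene's role. Dashed lines mark a 1.5-fold change, and only the intervals of Psmd3 and Psmd9 cross one of them.

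The alpha ring, which forms the gate of the barrel, was measured through all 7 genes, Psma1 to Psma7. None passed, 0 had an unadjusted p under 0.05, and the differences ran from −0.13 to 0.10 with a median of −0.08. Psma1 had log2 signals of 9.84, 9.98, 9.99 and 9.87 on the hydrogen water arrays, against 10.13, 10.06, 10.02 and 9.97 on the control arrays. The groups overlapped, since the lowest control array lay below the highest hydrogen water arrays, and the difference was −0.12 ± 0.07 (SE; limma adjusted p = 0.545). Psma6 had 11.65, 11.45, 11.39 and 11.54 with hydrogen water, against 11.35, 11.47, 11.44 and 11.36 in controls. Hydrogen water arrays 1 and 4 lay above all controls and the other two lay among them (0.10 ± 0.07, SE; limma adjusted p = 0.614). Psma4 had 9.04, 9.14, 8.98 and 8.87 with hydrogen water and 9.26, 9.23, 9.12 and 8.92 in controls, a difference of −0.12 ± 0.10 (SE; limma adjusted p = 0.700). The remaining 4 genes, Psma2, Psma3, Psma5 and Psma7, differed by −0.13 to 0.04.

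The beta ring of the standard proteasome was measured through 6 genes, 0 of which passed, with differences from −0.03 to 0.19 and a median of 0.06. Psmb5, the subunit with the chymotrypsin-like site, had log2 signals of 10.48, 10.35, 10.27 and 10.37 with hydrogen water, against 10.17, 10.54, 10.26 and 10.35 in controls. The hydrogen water arrays lay inside the range of the controls, and the 95% interval of the change ran from 0.893 to 1.17 times the control. Psmb7, which carries the trypsin-like site, had 10.39, 10.43, 10.13 and 10.28 with hydrogen water and 10.11, 10.25, 10.23 and 10.31 in controls. Here the 95% interval of the difference ran from −0.10 to 0.27, and the groups overlapped. Psmb2, a structural subunit, had 10.68, 10.56, 10.51 and 10.71 with hydrogen water, against 10.33, 10.72, 10.35 and 10.33 in controls. All 4 hydrogen water arrays stood above 3 of the control arrays, while control array 2 was the brightest of all (0.19 ± 0.10, SE; limma adjusted p = 0.493). Psmb3, also structural, had 10.30, 10.28, 10.25 and 10.22 with hydrogen water and 10.15, 10.06, 10.33 and 10.06 in controls, with the same arrangement around control array 3 (0.11 ± 0.08, SE; limma adjusted p = 0.624). Psmb1 and Psmb4 differed by −0.0013 and −0.03.

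The immunoproteasome subunits did not pass, and their 3 differences lay between 0.02 and 0.07. Their signs depended on the scaling, since all 3 were below 0 under median centring, at −0.0054 for Psmb10, −0.02 for Psmb8 and −0.04 for Psmb9. Under that scaling the median of all tested probe sets was −0.05, and all 3 lay above it. Psmb8, which takes the place of Psmb5, had log2 signals of 8.92, 8.88, 8.54 and 9.22 with hydrogen water, against 9.14, 8.74, 8.72 and 8.88 in controls. The hydrogen water arrays held both the lowest and the highest value of the 8, and the difference of 0.02 ± 0.14 (SE; limma adjusted p = 0.980) left an interval of 0.814 to 1.26 times the control. Psmb9, which takes the place of Psmb6, had 7.61, 8.12, 7.90 and 8.01 with hydrogen water and 7.98, 7.69, 7.89 and 8.01 in controls. Again the controls lay within the range of hydrogen water (0.02 ± 0.13, SE; limma adjusted p = 0.979). Psmb10, which takes the place of Psmb7, had 6.99, 7.07, 7.01 and 6.89 with hydrogen water, against 7.18, 6.81, 6.82 and 6.87 in controls, where array 1 stood apart from the other 3. Its difference was 0.07 ± 0.12 (SE; limma adjusted p = 0.869). The spread within groups was wider here than in the standard rings, with a median SD of 0.187 for these 3 genes against 0.119 for the 6 beta ring genes and 0.094 for the 7 alpha ring genes. Psmb8 and Psmb9 lie beside the peptide transporter genes Tap1 and Tap2 in the gene order of the rat assembly GRCr8.

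**Figure D2:**
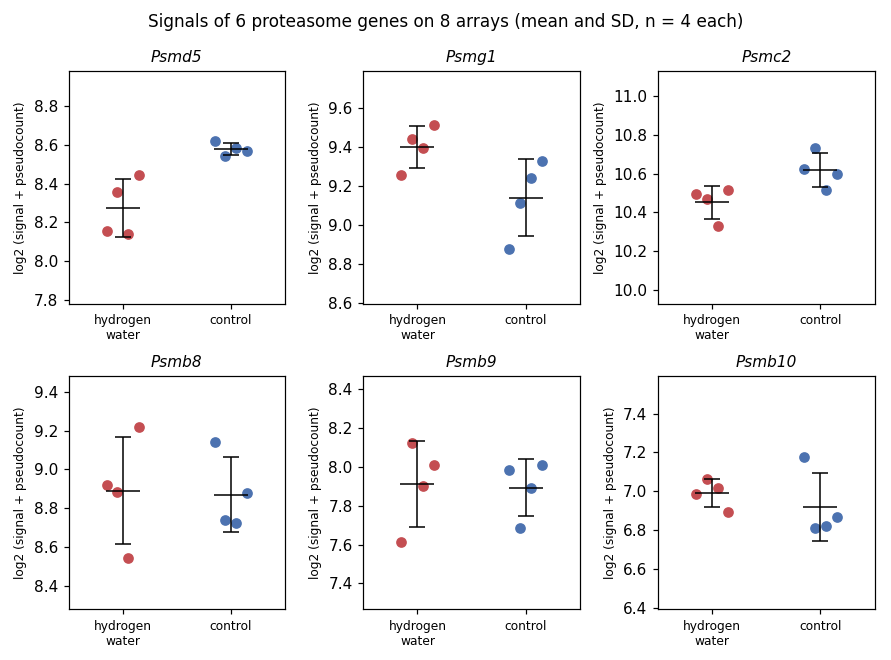
Log2 signal plus pseudocount (vertical axis) of Psmd5, Psmg1, Psmc2 and the immunoproteasome genes Psmb8, Psmb9 and Psmb10 on 4 hydrogen water and 4 control arrays, 1 point per array, with the mean and SD of each group (n = 4 each). The points of the 2 groups are apart only for Psmd5, at 8.14 to 8.44 with hydrogen water against 8.54 to 8.62 in controls.

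Genes that work with the immunoproteasome were also without a call. Of a list of 16 such genes of antigen presentation and the interferon response, 14 were tested and limma called 0. An unadjusted p under 0.05 in limma was found for 0 of the 14, against 12.5% of all tested probe sets. The median was 0.0041 beside −0.0011 over all tested probe sets. Irf9, which carries type I interferon signals, had the smallest p of the list, with a difference of 0.31 ± 0.18 (SE; limma adjusted p = 0.548). The chaperones Tapbp and Pdia3 of the peptide loading complex differed by 0.18 ± 0.13 and −0.08 ± 0.07 (SE). Immune cells are rich in immunoproteasome subunits, and their markers were measured beside them. Summed over 12 lymphocyte markers, the normalized signal ran from 211 to 299.7 on the hydrogen water arrays and from 237 to 346 on the control arrays, with 8 of the 12, among them the T cell genes Cd3d, Cd3e and Cd3g, below the filter. Over 9 markers of Kupffer cells and macrophages it ran from 4301 to 5192 with hydrogen water and from 3921 to 5565 in controls. The ranges overlapped, and the part of these cells in the levels of Psmb8, Psmb9 and Psmb10 was not tested.

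The activators of the core were given by Psme1, Psme2 and Psme4, and 0 of the 3 passed. Psme1 had log2 signals of 11.15, 11.03, 10.85 and 11.01 with hydrogen water, against 11.21, 11.18, 11.06 and 11.11 in controls. Only hydrogen water array 1 reached the range of the controls (−0.13 ± 0.07, SE; limma adjusted p = 0.546). The direction turned to 0.46 (limma adjusted p = 0.499) when all probe sets of the gene were averaged, which brings in a second one below the filter. Its partner Psme2 had 9.23, 9.18, 9.07 and 9.05 with hydrogen water and 9.15, 9.17, 9.005 and 9.08 in controls, and differed by 0.03 ± 0.08 (SE). Psme4, the large nuclear activator that acts on acetylated histones, had 9.67, 9.91, 9.86 and 9.76 with hydrogen water and 9.66, 9.73, 9.59 and 9.74 in controls. Its difference was 0.12 ± 0.08 (SE; limma adjusted p = 0.599), and its other tested probe sets gave 0.09 and 0.05.

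Letters of an interferon-response element were looked for near the starts of these genes. The core of the interferon-stimulated response element, GAAA followed by any 2 bases and GAAA, was searched on both strands of a RefSeq window of 300 bases around each gene's start in assembly GRCr8, of which 250 lie upstream. A window was held for 40 of the 44 genes, and Psma7, Psmd6, Psmd12 and Psmd14 were without one. The core was found in 7 of the 40, or 17.5%, against 3.92% of all 33469 windows. The 7 were Psma4, Psmb3, Psmb8, Psmb10, Psmd7, Psme2 and Psmg4, and a match is a description of the letters, not a site. Of the immunoproteasome and activator genes with a match, Psmb10 and Psme2 carry it wholly upstream of the start, whereas that of Psmb8 crosses the start. The differences of Psmb10 and Psme2 did not pass. The 100 bases before the start of Psmb10 (chr19:50743293-50743392, minus strand) and Psme2 (chr15:33052752-33052851, minus strand) are shown 5′ to 3′, with matches in capitals.
Psmb10: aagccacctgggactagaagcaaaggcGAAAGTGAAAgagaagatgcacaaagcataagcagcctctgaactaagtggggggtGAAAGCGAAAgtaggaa
Psme2: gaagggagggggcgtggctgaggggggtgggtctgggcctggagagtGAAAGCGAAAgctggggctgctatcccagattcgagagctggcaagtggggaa
The related interferon-gamma activated site core, TTCNNNGAA, was found in 4 of the 40 windows, or 10%, against 8.87% of all windows, and no match overlapped one of another motif.

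Of the 6 ATPases that unfold substrates, Psmc1 to Psmc6, 0 passed, and the differences ran from −0.17 to 0.13. Psmc2 had log2 signals of 10.49, 10.47, 10.33 and 10.52 with hydrogen water, against 10.62, 10.73, 10.52 and 10.60 in controls. The groups met at hydrogen water array 4 and control array 3, and the difference of −0.17 ± 0.07 (SE) had an unadjusted p of 0.0440 and an adjusted p of 0.384 in limma. Psmc4 had 9.75, 9.78, 9.50 and 9.64 with hydrogen water, against 9.42, 9.82, 9.39 and 9.49 in controls. Psmc5 had 9.31, 9.16, 9.11 and 9.13 with hydrogen water and 8.996, 9.21, 9.07 and 9.04 in controls. For both genes the hydrogen water arrays lay above 3 controls and below or around the brightest one, array 2, with differences of 0.13 ± 0.11 and 0.10 ± 0.08 (SE). Averaged with its second probe set, which was below the filter, Psmc4 turned to −0.24 (limma adjusted p = 0.792). Psmc1, Psmc3 and Psmc6 differed by −0.02 to 0.02, and the other probe sets of Psmc6 gave 0.23 ± 0.18 and 0.01 ± 0.17 (SE).

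The Psmd genes, 14 in number, hold the lid and scaffold of the cap and the chaperones that assemble its base, and they showed the largest differences of either sign among the 44 genes. Psmd5, a chaperone that holds base ATPases during assembly and is not part of the finished proteasome, had log2 signals of 8.16, 8.36, 8.14 and 8.44 with hydrogen water, against 8.62, 8.54, 8.58 and 8.57 in controls. All 4 hydrogen water arrays lay below all 4 controls. The difference of −0.30 ± 0.09 (SE), or 1.23-fold lower, had an unadjusted p of 0.0084 and did not pass (limma adjusted p = 0.195). Without hydrogen water array 3 it was −0.26, and over the fits that left out an array it ran from −0.36 to −0.26. Psmd9, another base chaperone, had 8.28, 8.47, 8.76 and 8.60 with hydrogen water, against 7.91, 8.15, 8.59 and 8.34 in controls. The groups overlapped (0.28 ± 0.15, SE; limma adjusted p = 0.504), and a second, dimmer probe set of the gene gave −0.11 ± 0.33 (SE). The difference was 0.17 without control array 1 and 0.085 as the mean of both probe sets. Without normalization it was −0.05, where the median of all tested probe sets was −0.33. Psmd3, a lid subunit, had 8.19, 8.34, 7.44 and 8.18 with hydrogen water, against 8.17, 8.49, 8.20 and 8.35 in controls. Array 3 alone was low, and the difference of −0.26 ± 0.18 (SE; limma adjusted p = 0.613) became −0.07 without it.

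The other 11 Psmd genes differed by −0.09 to 0.13, and the smallest adjusted p among them was 0.743 (limma). They include Psmd14, the deubiquitinase that removes the ubiquitin chain before degradation, at −0.03 ± 0.09 (SE), and Psmd4, a ubiquitin receptor, at −0.09 ± 0.12. The scaffold subunits Psmd1 and Psmd2 differed by 0.02 ± 0.10 and 0.04 ± 0.08 (SE). Psmd10, another base chaperone, also known as gankyrin, differed by 0.07 ± 0.17 (SE), so that the 3 base chaperones Psmd5, Psmd9 and Psmd10 had differences of unlike sign. Psmd7, the partner of Psmd14, had the smallest spread within groups of the 44 genes, with SDs of 0.043 with hydrogen water and 0.050 in controls (n = 4 each).

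The chaperones of the core and the inhibitor Psmf1 were measured through 5 genes, 0 of which passed. Psmg1, which pairs with Psmg2 to assemble the alpha ring, had log2 signals of 9.26, 9.44, 9.40 and 9.51 with hydrogen water, against 8.88, 9.11, 9.24 and 9.33 in controls. The lowest hydrogen water array lay below the highest control, and the difference of 0.26 ± 0.11 (SE) had an unadjusted p of 0.0335 and an adjusted p of 0.345 in limma. Psmg2 differed by −0.02 ± 0.16 (SE), with an SD of 0.331 with hydrogen water against 0.135 in controls (n = 4 each). Psmg3, which pairs with Psmg4, had 6.59, 6.23, 6.48 and 6.70 with hydrogen water and 6.80, 6.59, 6.75 and 6.61 in controls, and differed by −0.19 ± 0.13 (SE). Psmg4 differed by −0.0018. Psmf1 had 8.88, 8.81, 8.74 and 8.87 with hydrogen water and 8.86, 8.90, 8.92 and 8.87 in controls, a difference of −0.06 ± 0.08 (SE; limma adjusted p = 0.820). The genes outside the proteasome that share the name, Psmc3ip, a recombination factor of meiosis, and Psme3ip1, differed by 0.10 ± 0.19 and 0.14 ± 0.11 (SE), and neither passed. Of the 46 genes, 9 had more than 1 probe set, which gave 14 further probe sets. Of these, 9 were tested, 7 had the sign of the gene's brightest probe set and 0 passed in limma or had an unadjusted p under 0.05.

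Many proteasome genes were low on the same array. Hydrogen water array 3 was the lowest of its group for 28 of the 44 genes, or 63.6%, whereas it was the lowest for 28.4% of all tested probe sets. On that array 35 of the 44 genes lay below their group mean, with a median deviation of −0.09. The array was also the lowest for 27, 28 and 27 of the 44 without normalization, under median centring and under cyclic loess. Control array 1 was the lowest of the controls for 19 of the 44, but for 1 without normalization and for 25 under median centring, so its place depended on the scaling. Hydrogen water array 3 had the lowest ratio of 3′ over 5′ Gapdh signal in its group, a measure of RNA integrity that is lower for more intact RNA. It was 0.27 on the log2 scale, against 0.36 to 0.46 on the other hydrogen water arrays. That value lay within the 0.14 to 0.34 of the control arrays, and the part of this ratio in these deviations was not tested. Without this array 0 of the 44 genes passed in limma, the smallest adjusted p was 0.384 and the median difference was 0.04.

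**Figure D3:**
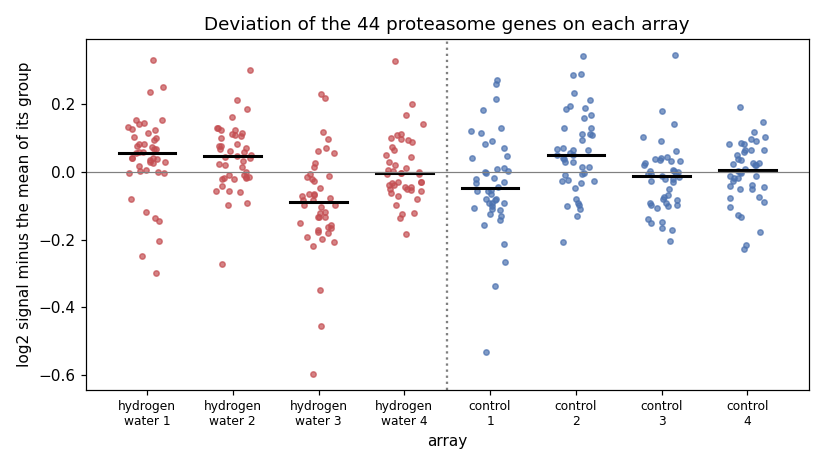
Log2 signal of each of 44 proteasome genes minus the mean of its group (vertical axis) on the 4 hydrogen water and 4 control arrays (horizontal axis), 1 point per gene, with bars for the median on each array. Hydrogen water array 3 has the lowest median, −0.09, and control array 1 the next, −0.05.

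Among factors that govern proteasome transcription, Stat3 and Foxo1 passed as higher with hydrogen water, though not in every fit that left out an array. Of a list of 12 such genes, 11 were tested and 2 passed in limma, both higher. Among all tested probe sets 0.445% passed as higher and 0.38% as lower. The list was chosen with earlier results of these data known, so its shares are not a test of enrichment. An unadjusted p under 0.05 in limma was found for 7 of the 11, against 12.5% of all tested probe sets. Of the 7, 4 were higher and 3 lower, and the median of the list was −0.04 beside −0.0011 over all tested probe sets. Estimates for related factors were of unlike sign, but Foxo3, Mafg and Mafk did not pass and their groups overlapped. Foxo3, a relative of Foxo1, had a difference of −0.39 ± 0.15 (SE; limma adjusted p = 0.295). Mafg and Mafk, small partners with which NFE2L1 and NFE2L2 bind DNA, had differences of 0.42 ± 0.15 and 0.38 ± 0.15 (SE; limma adjusted p = 0.271 and 0.325). Nfe2l1, which raises proteasome genes when activity falls short, had log2 signals of 6.55, 6.50, 6.11 and 6.28 with hydrogen water, against 6.82, 6.85, 6.66 and 6.79 in controls. The groups did not overlap, as at 7.48% of all tested probe sets, and the difference of −0.42 ± 0.13 (SE) did not pass (limma adjusted p = 0.186). It passed under 1 of 9 other settings, no normalization, and in 0 of 8 fits without an array, where adjusted p ran over all of these between 0.0398 and 0.361. Nfe2l2, the NRF2 factor of the oxidant response, had 8.61, 8.94, 8.76 and 9.03 with hydrogen water and 9.09, 9.21, 9.04 and 9.44 in controls. These did not overlap either, and the difference of −0.36 ± 0.12 (SE) did not pass (limma adjusted p = 0.218), nor under any of 10 other settings or in 8 fits without an array.

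The 2 genes of that list that passed were Stat3, which relays cytokine signals, and Foxo1, which insulin restrains. Stat3 had log2 signals of 9.64, 9.35, 9.90 and 9.57 with hydrogen water, against 8.52, 8.41, 9.002 and 8.90 in controls (0.91 ± 0.15, SE; limma adjusted p = 0.0225). Foxo1 had 8.47, 8.05, 8.61 and 8.09 with hydrogen water, against 7.05, 6.99, 7.83 and 6.93 in controls (1.10 ± 0.21, SE; limma adjusted p = 0.0354). Both rose with no overlap of the groups. With single arrays left out, Stat3 passed in 3 of 8 fits, missing the threshold without control array 1 or 2 (adjusted p = 0.0661 and 0.0668) or hydrogen water array 1, 3 or 4 (adjusted p = 0.0710, 0.0680 and 0.0607). Foxo1 passed in 2 of the 8, missing it without control array 1, 2 or 4 (adjusted p = 0.0925, 0.108 and 0.0989) or hydrogen water array 1, 3 or 4 (adjusted p = 0.110, 0.0978 and 0.0679). Without normalization both missed it in limma, at an adjusted p of 0.106 for Stat3 and 0.0780 for Foxo1. Both also missed it with no trend in limma's prior, at 0.0693 and 0.0842. Stat3 passed in 8 of 10 other settings and Foxo1 in 7 of 9. The mean of all Foxo1 probe sets fell below the filter and was not tested.

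**Figure D4:**
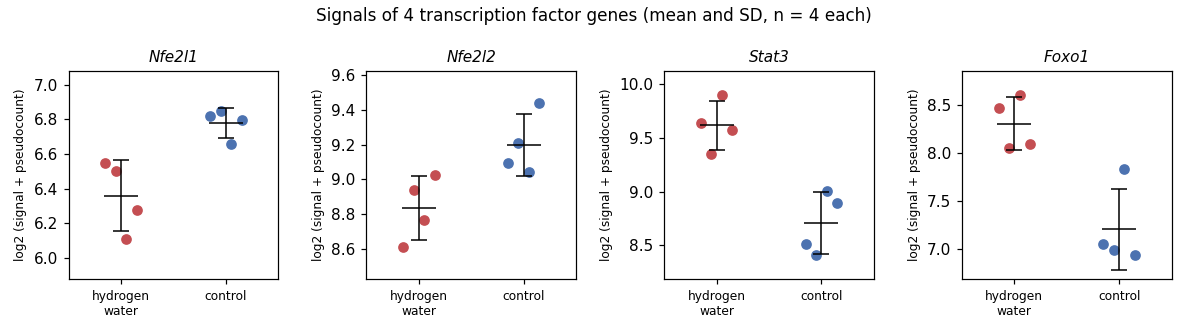
Log2 signal plus pseudocount (vertical axis) of the transcription factor genes Nfe2l1, Nfe2l2, Stat3 and Foxo1 on 4 hydrogen water and 4 control arrays, 1 point per array, with the mean and SD of each group (n = 4 each). The groups do not overlap in any of the 4 panels, with Nfe2l1 and Nfe2l2 lower and Stat3 and Foxo1 higher with hydrogen water, and the adjusted p lay under 0.05 for Stat3 and Foxo1 only.

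The antioxidant response element was searched in the same windows, because NFE2L1 and NFE2L2 bind it and act on proteasome genes through it. Its core was searched only in the spelling TGAC followed by any 3 bases and GCA. That spelling was found in 4 of the 40 windows, or 10%, against 3% of all windows, at Psma3, Psmd1, Psmd3 and Psmd9. The matches of Psmd1 and Psmd3 lay after the start. The CCAAT box, another common element of proteasome promoters, was found in 20 of the 40, or 50%, against 37.5% of all windows. At Psma3 (chr6:95219649-95219748, plus strand) and Psmd9 (chr12:39018335-39018434, minus strand) the match lay upstream of the start, and 100 bases of each are shown 5′ to 3′ with the match, on the complementary strand, in capitals.
Psma3: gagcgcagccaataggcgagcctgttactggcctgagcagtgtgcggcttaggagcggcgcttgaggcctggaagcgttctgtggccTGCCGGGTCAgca
Psmd9: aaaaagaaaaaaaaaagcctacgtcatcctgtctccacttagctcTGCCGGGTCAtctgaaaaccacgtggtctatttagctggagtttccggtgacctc
The genes with a match had differences of either sign, at −0.13 ± 0.11 for Psma3, 0.02 ± 0.10 for Psmd1, −0.26 ± 0.18 for Psmd3 and 0.28 ± 0.15 for Psmd9 (SE), and none of the 4 passed in limma.

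Genes that deliver substrates to the proteasome, assemble it or supply ubiquitin were without calls. Of 23 assembly factors, shuttles and cofactors, 21 were tested, limma called 0, and the median was 0.01. Unadjusted p in limma lay under 0.05 for 1 of the 21, against 12.5% of all tested probe sets. That gene was Zfand2a, a stress-induced protein that associates with the proteasome, at −0.70 ± 0.29 (SE; limma adjusted p = 0.356), with control array 2 at 7.63 above the 6.09 to 6.58 of the other controls. Zfand5, which activates the proteasome, and Vcp, the unfoldase that hands it ubiquitylated proteins, differed by −0.18 ± 0.09 and −0.10 ± 0.06 (SE). Of 12 genes of ubiquitin and its activation, 7 were tested and limma called 0. Unadjusted p in limma lay under 0.05 for 1 of the 7, beside the same 12.5%. It was Uba6, a ubiquitin-activating enzyme, with a difference of −0.33 ± 0.12 (SE; limma adjusted p = 0.272). Its groups did not overlap, as at 7.48% of all tested probe sets. Ube2d1 and Uba1 differed by −0.37 ± 0.20 and −0.14 ± 0.09 (SE).

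Depth and cell make-up were checked over the whole table. The median deposited signal ran from 17.2 to 20.2 on the hydrogen water arrays and from 18.9 to 26.8 on the control arrays, which quantile normalization evened out. On the log2 scale, 3′ over 5′ Gapdh signal averaged 0.378 ± 0.084 with hydrogen water and 0.222 ± 0.097 in controls (SD, n = 4 each), and its part in the differences was not tested. The hepatocyte genes Alb, Ttr and Apoa1 had log2 signals above 12 on every array. Over 6 lists of cell type markers, limma called 0 of 36 tested genes. The lists were for hepatocytes, Kupffer cells and macrophages, lymphocytes, endothelial, stellate and erythroid cells. Unadjusted p in limma lay under 0.05 for 2 of the 36, against 12.5% of all tested probe sets. These were the endothelial genes Stab2 and Lyve1, at 0.42 ± 0.13 and 0.38 ± 0.13 (SE). The other endothelial genes tested, Stab1, Kdr and Pecam1, differed by −0.24 ± 0.16, −0.10 ± 0.10 and −0.04 ± 0.17 (SE).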

How the data were processed

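Biotinylated cRNA was made from total liver RNA for Affymetrix arrays, per the labels' protocols. The deposited values are linear signal intensities, 1 per probe set, which the authors made with MAS5, per the submitters' processing notes. The version of MAS5 was not given in the sources used here, nor was its scaling target. Sample labels gave the groups.

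The 57 control probe sets were left out and the other 31042 were quantile-normalized. Array medians differ, and the scaling decides the shift of most probe sets, so other scalings were tried. Before log2, a pseudocount of 2.05 was used, 10% of the overall median signal. The 15521 probe sets at or above the median mean signal were tested in limma 3.58.1 (R 4.3.3; lmFit, then eBayes with an intensity trend), with Benjamini-Hochberg adjustment at 0.05, two-sided, with no covariate. Intervals are 95% limits from this fit. The steps were tested on simulated data.

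Symbols came from the platform annotation, and 20758 of 20826 probe sets with 1 symbol matched the RefSeq table of GRCr8 by Entrez ID, with 0 symbols changed. Promoter windows are from RefSeq, GRCr8. Motifs and figures were made with Python 3.11.15, pandas 2.3.3 and matplotlib 3.10.9. The members, the lists and the settings were chosen with earlier results of these data known. Named with a value on each array are members past the threshold, the 3 with the smallest p in each subgroup, and the catalytic, immunoproteasome and activator genes. Of each related list, up to 3 genes with the smallest p are named. Nfe2l2, Psmd7, Psmd4 and other genes named beyond this were chosen after their values were seen.

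Alternatives covered the scaling (median centring, cyclic loess, none), the pseudocount (none, or 50% of the median), the filter (none, or a stricter one), no trend, the replicate number as a block, the mean of all probe sets of a gene, and leaving out each array. The same alternatives for the related genes were added after seeing the data.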

Additional observations from a re-analysis of the deposited data

Results flagged for a closer look

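Of 88 sets of 4 values, 44 genes in each of 2 groups, 4 held an array that stood apart from the other 3 (4.55%, where chance gives about 5%). Each has a gap to its nearest neighbour over the range of the 4 values above Dixon's 95% critical value. Control array 1 was low for Psma2, at a log2 signal of 10.19 against 10.38 to 10.39 on the other controls, and high for Psmb10, at 7.18 against 6.81 to 6.87. Control array 2 was high for Psmb2, at 10.72 against 10.33 to 10.35. Hydrogen water array 3 was low for Psma5, at 9.99 against 10.22 to 10.27 on the other hydrogen water arrays.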

How the results depend on the processing

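In each of 18 alternatives 0 of the tested proteasome genes passed, with a smallest adjusted p between 0.0818 (no normalization) and 0.384 (without hydrogen water array 3). Their median difference of 0.02 became −0.31 without normalization, where 14 of the 22 genes named with values changed sign, 4 did so under median centring, 2 with the mean of all probe sets of a gene (Psme1 at 0.46 and Psmc4 at −0.24) and 0 to 2 in each fit with an array left out (among Psmb5, Psmb8, Psmb9 and Psme2). Leaving out an array gave medians of −0.01 to 0.04, within the SD of 0.053 between arrays. All tested probe sets gave 128 calls, against 505 without normalization, 64 with no trend in the prior and 55 to 197 with an array left out (61, 197 and 58 without control array 2, 3 or 4, and 61, 55 and 71 without hydrogen water array 1, 3 or 4). Of the 505, 4.16% were higher with hydrogen water, against 53.9% of the 128 and 35% of the 157 calls under median centring. Calls among the related genes, 2 in all, were 3 without normalization, 0 with no trend, 1 with the mean of all probe sets of a gene and 0 to 2 with an array left out. The cause was not tested. With the replicate number as a block, 0 proteasome genes passed (smallest adjusted p = 0.229), 181 probe sets passed and 2 related genes passed. Same-numbered arrays correlated at −0.10 to 0.19 in their deviations, and 1 of 4 hydrogen water arrays correlated best with its own number. No detection calls were used to mark probe sets near background, which touches the 5 further probe sets of members below the filter.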
